A study of Zea mays with 4 samples.

Results

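The core histone genes described here are 6 maize genes chosen by NCBI GeneID, out of 48174 genes listed for each library and 34018 protein-coding ones. They are H3C2 (GeneID 100192589, histone H3), H4C13 (100192931, histone H4), his2a1 (103639303, histone H2A), and the histone H2B genes his2b5 (542301), his2b2 (100193014) and histone2b1 (100273030). Class names were read from the gene symbols, since no protein sequence was used here. All 6 passed the filter on low counts, as did 19606 protein-coding genes in all.

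Every sample was maize (Zea mays) of the inbred line B73, with no transgene, mutant or treatment named. The tissue was the outermost 1 mm of the tips of primary and seminal roots, which the labels do not separate. It was cut 3 days after germination from seedlings grown at 28 C in constant dim light of about 500 lux. The labels give 4 biological replicates of this 1 group, so the comparisons open to the data are between genes within the libraries and between libraries. After removal of ribosomal RNA, total RNA went into directional libraries with molecular tags, and the deposited values are estimated counts per gene.

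Core histones are the proteins around which DNA is wrapped. H3 and H4 form the centre of the nucleosome, and H2A and H2B bind on either side of it. In plants they come from families of many genes that encode nearly the same protein. Their transcripts accumulate mainly while DNA is copied, and the dividing cells of the root meristem lie within the tip.

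Library totals ran from 9168900 to 14728797 counts, at which 3 counts equal 0.204 to 0.327 CPM (a count scaled to a library total of 1e6). No pair of libraries matched within sampling noise. The chi-square per degree of freedom over genes was 6.43 to 11.5 among replicates 1 to 3. For pairs with replicate 4 it was 14.0 to 18.1, the furthest by this measure, which grows with counts. The median absolute deviation from the mean of each gene was instead largest in replicate 2, at 0.159 on the log2 scale. In replicates 1, 3 and 4 that deviation was 0.113, 0.098 and 0.140. Replicate 4 held the highest of the 4 values for 38.4% of tested genes, and replicate 2, the shallowest library, held the lowest for 41.8%. The 3 root cap and root hair markers, RCP1, RCP2 and rth3, were at 65.6 to 201 CPM. Of 10 leaf genes for light harvesting or Rubisco, 6 had no count in any library, and 27 of 28 zein seed storage genes had none.

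All 6 core histone genes were read far more often than a typical gene of the tip. They lay 16.4-fold to 54.0-fold above the median expressed protein-coding gene of the same library, which stood at 14.6 ± 0.678 CPM (SD, n = 4). Their median log2 ratio to it was 5.12, a 34.9-fold difference. Over all genes tested that median was 0.00, which the scaling to the median gene sets in advance. The test against a 2-fold difference was built on edgeR's quasi-likelihood fit, with Benjamini-Hochberg adjustment over all genes tested. By it 6 of 6 lay above, where 26.6% of all tested genes did and 25.1% lay below. All 6 were called, but a set of 6 genes picked with their levels known supports no statement on histones as a family. In bulk tissue, fewer cells with a transcript and less RNA per cell cannot be told apart.

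**Figure D1:**
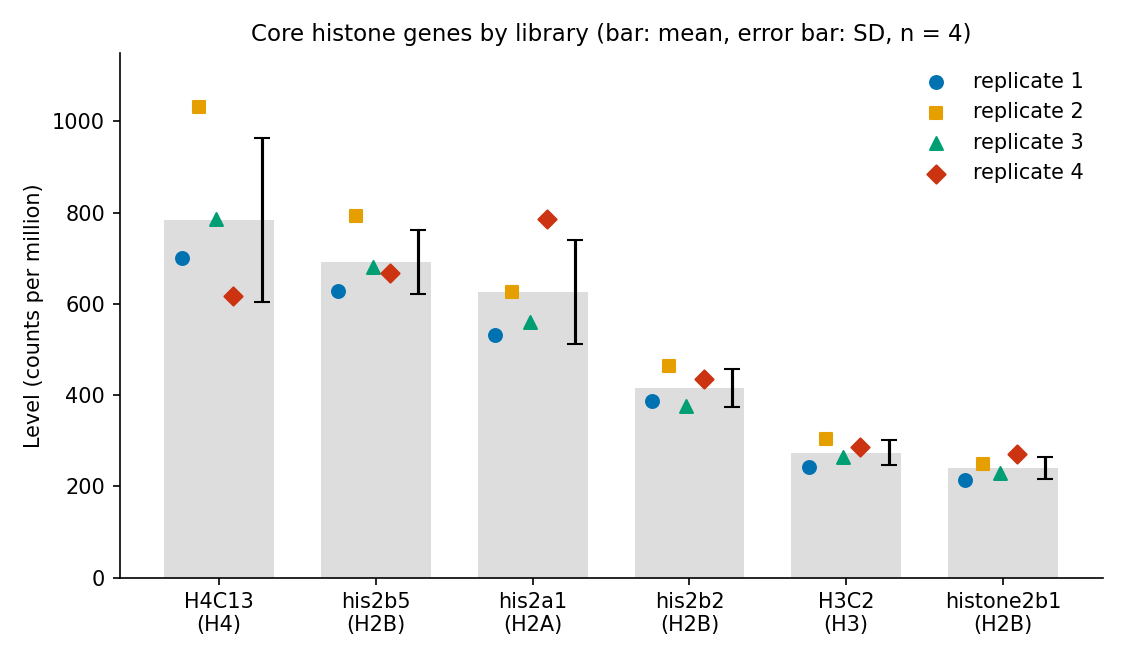
Level of each core histone gene in CPM (vertical axis) in the 4 root tip libraries, with the mean as a bar and the SD as an error bar. H4C13 reached 1032 CPM in replicate 2 and 618 in replicate 4, while his2a1 was highest in replicate 4 at 787.

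The summed level of the 6 genes was 2705, 3467, 2897 and 3064 CPM in replicates 1 to 4. Together they took 0.303 ± 0.0324% of all counts (SD, n = 4), with a coefficient of variation (SD over mean) of 10.7%. Replicate 2 was the highest and replicate 1 the lowest.

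The H4 gene H4C13 had the highest mean read level of the 6, and was the highest in replicates 1 to 3. In replicate 4 it lay below his2a1 and his2b5. It stood at 700.4, 1032, 786 and 618 CPM in replicates 1 to 4, a mean of 784 ± 179. Among all protein-coding genes it ranked between 100 and 218 by reads, depending on the library. Its fitted log2 ratio to the median gene was 5.76, with an edgeR quasi-likelihood adjusted p of 2.71e-20. The SD of the ratios of the single libraries was 0.38 (n = 4).

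The H2A gene his2a1 held 532, 626, 561 and 787 CPM in replicates 1 to 4, a mean of 626 ± 114. Replicate 4 was the highest and replicate 1 the lowest, so the library in which H4C13 was lowest was the one in which his2a1 was highest. Its fitted log2 ratio to the median gene was 5.42 (SD of the single-library ratios 0.22), with an edgeR quasi-likelihood adjusted p of 8.29e-21.

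Among the H2B genes, his2b5 led in all 4 libraries, with 629, 792, 681 and 668 CPM and a mean of 693 ± 70.0. The second, his2b2, held 388, 465, 375 and 435 CPM, a mean of 416 ± 41.4. The lowest of the 6 by reads was histone2b1, with 214, 249, 228 and 270.4 CPM and a mean of 240.5 ± 24.5. The 3 H2B genes did not overlap in their ranges. Their log2 ratios to the median gene were 5.57, 4.83 and 4.04, and the largest of their edgeR quasi-likelihood adjusted p-values was 7.52e-18.

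The H3 gene H3C2 held 242, 304, 265 and 286 CPM, a mean of 274 ± 26.8. Its range overlapped that of histone2b1, although it was the higher of the pair in every library. Its fitted log2 ratio to the median gene was 4.23 (SD of the single-library ratios 0.17), with an edgeR quasi-likelihood adjusted p of 3.60e-18.

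**Figure D2:**
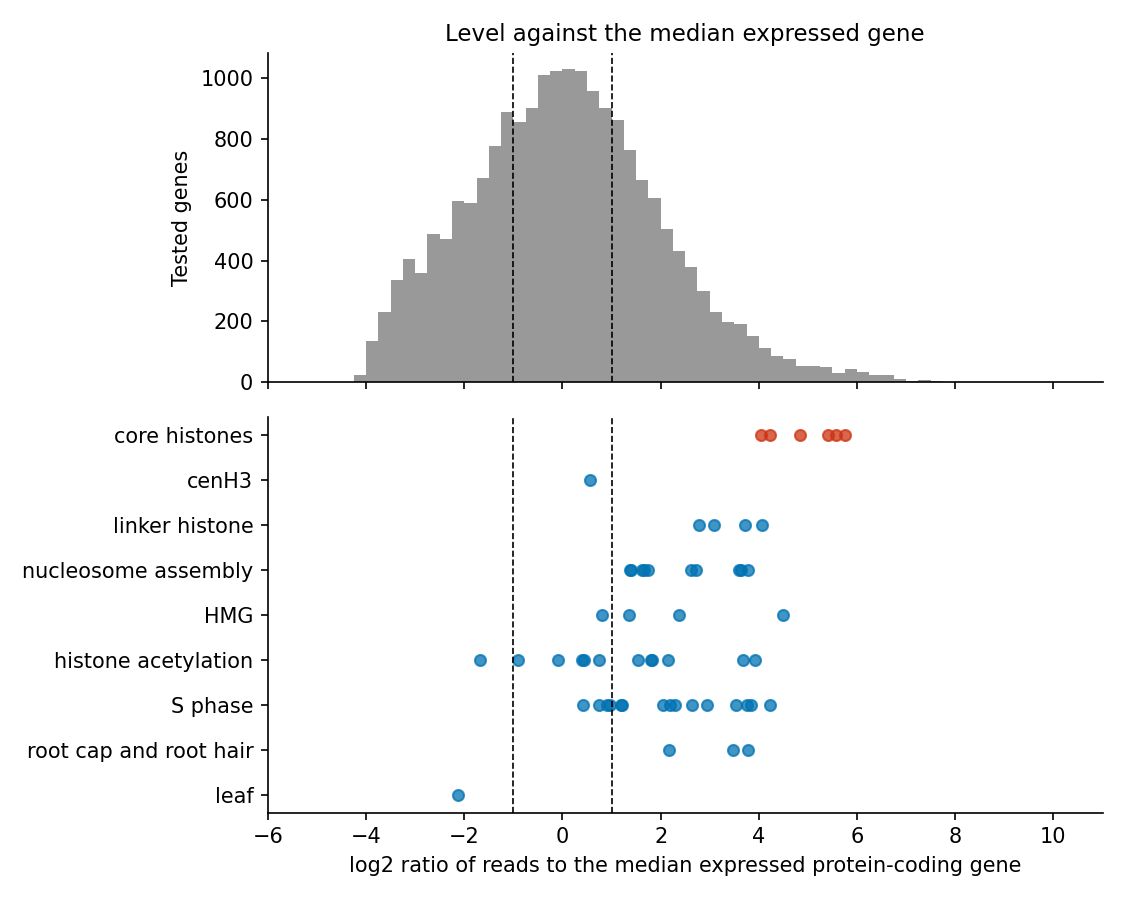
Histogram of the log2 ratio of reads to the median expressed protein-coding gene over all 19606 tested genes (top), and the same ratio for each gene of the lists (bottom), with dashed lines at a 2-fold difference. The core histone genes sit between 4.04 and 5.76, and cenH3 at 0.57.

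A long transcript gives more reads than a short one, and these genes are short. Their annotated spans, introns included, ran from 615 bases for H4C13 to 859 for his2b5, against a median of 4006 bases over tested genes, and 2.56% of tested genes spanned no more than his2b5. Divided by gene span, the 6 lay higher, at a median log2 ratio of 7.59 or 193-fold, and 6 of 6 again passed the test, where 28.0% of all genes did. Among 496 other tested genes of 859 bases or less, 149 (30.0%) lay above the median gene in reads, and their median log2 ratio was -0.48. Span overstates the length of genes with introns, so ratios per span to long genes are upper values.

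Levels of the 6 genes were set against each other per kilobase (kb) of gene span. H4C13 stood highest at 1275 ± 291 CPM per kb (SD, n = 4), followed by his2b5 at 806 ± 81.5, his2a1 at 768 ± 139.7, his2b2 at 542 ± 54.0, H3C2 at 360.2 ± 35.2 and histone2b1 at 283 ± 28.8. In 14 of the 15 pairs the same gene was higher in 4 of 4 libraries. The exception was his2b5 over his2a1, at a mean log2 ratio of 0.08 ± 0.27, which favoured his2b5 in 3 libraries and his2a1 in replicate 4. Those neighbours in the order therefore did not differ beyond their spread.

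With 4 libraries a two-sided exact sign-flip permutation test cannot go below p = 0.125, which adjusted over the 15 pairs was 0.134 for each of the 14, so no pair could pass 0.05. For his2b5 over his2a1 the exact p was 0.625. Without replicate 4 his2b5 over his2a1 was 0.21 on the log2 scale. All 15 of 15 pairs then had 1 direction, which was set in advance, because the exception turned only in that library. On the scale of reads, 12 of 15 pairs kept 1 direction, and the exceptions were the 3 pairs among H4C13, his2b5 and his2a1.

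Summed by class per kb, the 3 H2B genes reached 1631 ± 145 CPM per kb, H4 1275 ± 291, H2A 768 ± 139.7 and H3 360.2 ± 35.2. These sums cover the 6 named genes alone and not all genes of each class, so they say nothing of the balance of histone proteins. All 6 pairs of classes had 1 direction in 4 of 4 libraries (exact permutation p = 0.125, also after adjustment over the 6). In reads, 5 of 6 did, and H4 over H2A turned in replicate 4.

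The steadiest ratio was that of the H2B sum to H3C2. It was 4.68, 4.56, 4.46 and 4.43 per kb in replicates 1 to 4, a log2 ratio of 2.18 ± 0.036. By contrast, H4C13 over his2a1 was 1.75, 2.19, 1.86 and 1.04, a log2 ratio of 0.72 ± 0.46. In replicate 4 the 2 genes were nearly level per kb, and without that library the log2 ratio was 0.94. In reads the same ratio was 1.32, 1.65, 1.40 and 0.785, so his2a1 had the more reads in replicate 4.

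**Figure D3:**
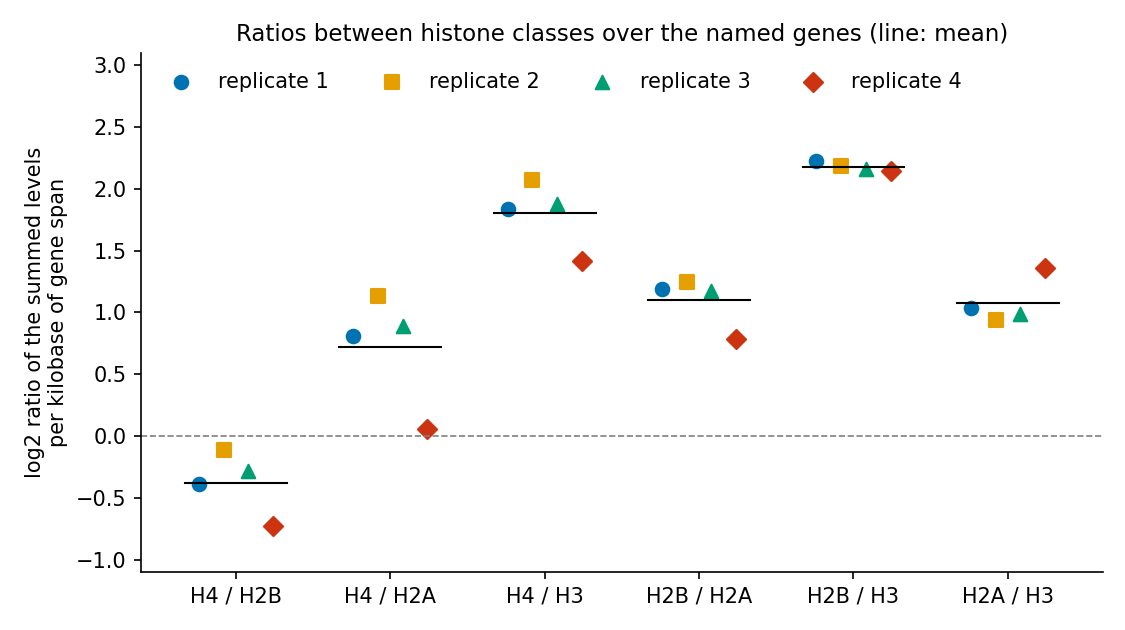
Log2 ratio between the summed levels per kilobase of gene span of the histone classes over the 6 named genes (vertical axis), by library, with the mean as a line. H2B over H3 keeps within 2.15 to 2.23, while H4 over H2A falls from 1.13 in replicate 2 to 0.06 in replicate 4.

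Within H2B the makeup was steady between libraries. Per kb, his2b5 held 49.4 ± 1.98% of the sum of the 3 genes, his2b2 33.2 ± 1.18% and histone2b1 17.4 ± 1.29% (SD, n = 4). The share of his2b5 was lowest in replicate 4, at 46.7%, where that of histone2b1 was highest, at 19.2%.

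As a share of the reads of all 6 genes, H4C13 took 25.9%, 29.8%, 27.1% and 20.2% in replicates 1 to 4. For his2a1 the shares were 19.7%, 18.0%, 19.4% and 25.7%. The other 4 genes moved less, with SDs of their shares between 0.241 percentage points for H3C2 and 0.76 for his2b5. The difference between replicate 4 and the rest therefore lay mostly in H4C13 and his2a1, which moved in opposite directions.

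**Figure D4:**
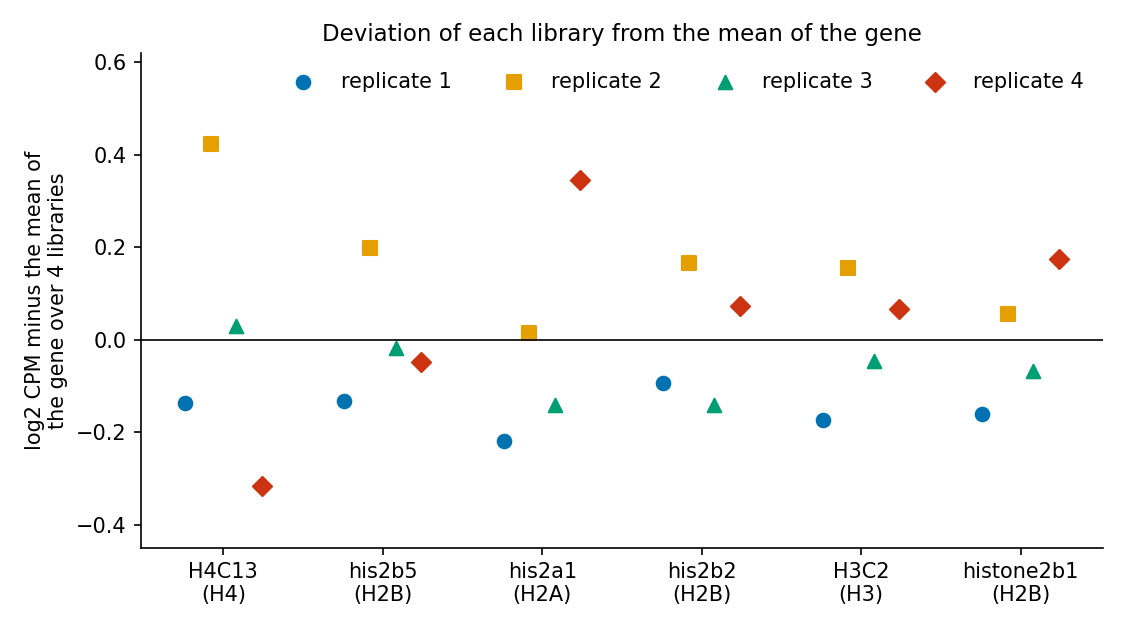
Log2 CPM of each gene in each library minus the mean of that gene over the 4 libraries (vertical axis). In replicate 4, H4C13 lies at -0.32 and his2a1 at 0.35, while in replicate 2 every gene lies above 0, from 0.02 for his2a1 to 0.42 for H4C13.

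Replicate 1 lay below the mean of the gene for 6 of 6 genes, by 0.09 to 0.22 on the log2 scale, and replicate 2 above it for 6 of 6. The 496 short genes had a median deviation of -0.12, 0.11, -0.05 and 0.04 in replicates 1 to 4, against 0.00, -0.07, -0.01 and 0.07 over all tested genes. Short genes were thus also higher in replicate 2 and lower in replicate 1, and the part of gene length in the histone values was not tested.

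Spread between libraries also set H4C13 and his2a1 apart from the other 4. The coefficient of variation of H4C13 was 22.8%, where counting error alone would give 1.02%, and 95.5% of the 311 genes within 2-fold of its level varied less. That of his2a1 was 18.2%, above 88.3% of 386 such genes. For H3C2, his2b2, his2b5 and histone2b1 it was 9.76% to 10.2%, close to the medians of 9.76% to 10.6% among genes of like level. Single libraries decided some of these values. Without replicate 2 that of H4C13 was 12% and that of his2b5 4.12%, and without replicate 4 that of his2a1 was 8.40%.

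**Figure D5:**
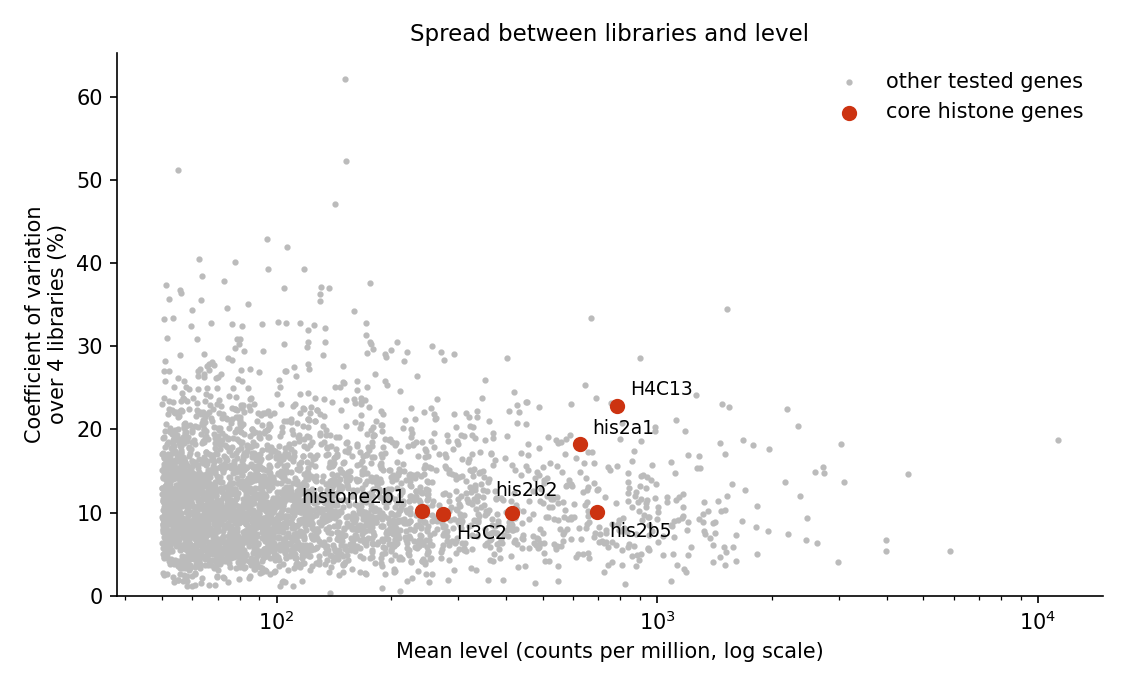
Coefficient of variation over the 4 libraries (vertical axis, %) against mean level (horizontal axis, CPM on a log scale) for tested genes of 50 CPM or more. H4C13 at 22.8% and his2a1 at 18.2% lie in the upper part of the cloud, and the other 4 core histone genes lie near 10%.

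The centromeric H3 variant cenH3, which takes the place of H3 in the nucleosomes of centromeres, was far lower. It held 21.3, 25, 19.5 and 21.4 CPM, a mean of 21.8 ± 2.31, and its log2 ratio of 0.57 to the median gene did not pass the 2-fold test. With no filter on low counts, where the reference is a lower gene, the ratio was 1.44 and passed that test (edgeR quasi-likelihood adjusted p = 2.36e-05). Per kb of span, introns included, it stood at 4.92 ± 0.522 CPM per kb against 360.2 for H3C2. No cenH3 value reached a value of any of the 6 genes.

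Linker histones bind the DNA between nucleosomes, and 4 of 4 of their genes lay above the median gene, where 26.6% of all tested genes did, at a median log2 ratio of 3.40. The gene with the most reads was hon110 at 245 ± 43.2 CPM and the one with the fewest was hon101 at 101.5 ± 26.3. Their summed level was 616, 590, 611 and 834 CPM in replicates 1 to 4. Like his2a1 and histone2b1, and unlike H4C13, they were highest in replicate 4. That library was also the highest for 38.4% of all tested genes, whose median deviation there was 0.07 on the log2 scale. Whether the likeness is particular to these genes was not tested. Core over linker reads were 4.39, 5.88, 4.74 and 3.67 in replicates 1 to 4.

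Nucleosome assembly genes encode chaperones and related proteins that help to place histones on DNA. All 10 lay above, against 26.6% of all tested genes, at a median log2 ratio of 2.18, from nfa103 at 37.8 ± 4.70 CPM to nfc101 at 201 ± 19.8. Per gene span 7 of 10 lay above, against 28.0% of all genes, and the calls of nfa103, nfc103 and ssrp1 were lost. These lists were chosen with results known, so the counts describe the listed genes alone. Of 4 genes of high mobility group (HMG) chromatin proteins, 3 lay above, again against 26.6% of all tested genes, with nfd101 the highest at 329 ± 38.4 CPM and nfd106 the lowest at 25.9 ± 10.6. Per gene span 3 of 4 also lay above, against 28.0%, but the call of nfd102 was lost and nfd106 was called above. With no filter 4 of 4 lay above, against 32.1% of all genes. In replicate 4, nfd106 was at 41.7 CPM against 19.6 to 21.9 in the rest.

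Of 12 genes for enzymes that add or remove histone acetyl groups, 6 lay above the median gene, 1 below and 5 did neither, where 26.6% of all tested genes lay above and 25.1% below, at a median log2 ratio of 1.14. The highest in reads was hdt103, a plant-type histone deacetylase gene, at 222 ± 32.3 CPM. The lowest, hda106, at 4.59 ± 1.12 CPM, was the 1 gene below, and its call was lost per gene span, where its log2 ratio was -1.32, and with no filter on low counts, where it was -0.82. Per gene span the calls of hda101 and hda110 were lost as well, and hda102 and hda113 were called below, which left 4 above and 2 below, against 28.0% and 25.3% of all genes. With no filter 9 lay above and 0 below by edgeR, against 32.1% and 35.2%.

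The 15 S phase genes, which serve DNA replication and nucleotide supply, had 9 above and 6 neither, where 26.6% of all tested genes lay above, at a median log2 ratio of 2.19. The count rested on the setting: 10 lay above per gene span, against 28.0% of all genes, and 15 of 15 with no filter, against 32.1%. SLD5, a subunit of the GINS complex, was called above per gene span and also without replicate 4 (log2 ratio 1.30, edgeR adjusted p = 1.81e-02). The origin recognition gene orc1 was called above without replicate 2 (1.28, edgeR adjusted p = 8.08e-03) and by limma-trend (1.19, adjusted p = 3.08e-02). PCNA, the sliding clamp of DNA polymerase, was the highest in reads at 273 ± 16.5 CPM, and orc3, a subunit of the origin recognition complex, the lowest at 19.5 ± 3.67. The 6 core histone genes together had 1.90, 2.55, 2.07 and 2.04 times the reads of the 15 S phase genes in replicates 1 to 4. That ratio was highest in replicate 2, where the histone sum was highest and the S phase sum lowest. The S phase genes span 1387 bases or more. In replicate 2 the median deviation of short genes was 0.11 on the log2 scale, against -0.07 over all tested genes. The part of gene length in this ratio was not tested.

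Of 3553 protein-coding genes of at least 50 CPM, the 5 whose change between libraries was most like that of the summed core histones were named, by the root mean square difference of centred log2 CPM over 4 libraries. They were LOC103637824 (PIN1a, an auxin efflux carrier) at 0.0039, LOC542337 (rpp2a-2, an acidic ribosomal protein) at 0.0124, LOC100217209 (ndpk1, a nucleoside diphosphate kinase) at 0.013, LOC100283914 at 0.0181 and LOC100217171 at 0.0188. The median over all candidates was 0.194. With 4 libraries such likeness describes these samples alone.

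The reference annotation places the 6 genes on 5 chromosomes, with 1 transcript each, no pair next to each other and 0 overlapping another annotated gene. Of their 24 deposited values 1 was fractional, that of his2b2 in replicate 4. The entry of H4C13 carries 3 older gene models and the entry of H3C2 3 gene names, so the counts of either may stand for more than 1 near-identical copy. How reads shared between such copies were counted was not stated in the sources used here, and the level of each gene alone is uncertain to that extent.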

How the data were processed

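The authors deposited estimated counts per GeneID for 4 libraries. Per the submitters' processing notes, the tools were HTSeq, STAR 2.7.10b, Trimmomatic (0.36 and 0.39), UMI-tools, SAMtools and deepTools. Not given in the sources used here are their settings, the build, the annotation, strand handling and the collapsing of molecular tags. If tags were not collapsed, reads are not independent molecules, and the levels given for 3 counts cover counting error only. Of 48174 genes, 3062 had a fractional value (tolerance 1e-06); values were rounded to whole numbers. No row lacked a gene. The 5 columns of a further table match no sample and were not used.

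Names and spans came from RefSeq for Zm-B73-REFERENCE-NAM-5.0, where 48127 GeneIDs were found. Coding length was planned; that table holds none, so the main fit used reads, and pairs used gene span. Classes hold the 6 genes alone, and promoters were not analysed here. In edgeR 4.0.16 a quasi-likelihood model with an intercept alone was fitted after filterByExpr (minimum count 10, total 15). Each library's median gene was the offset. The test against 2-fold was written on that fit and is not a function of edgeR. It was an F test on the deviance at the nearer bound, with p held at or above that from counting error alone. Benjamini-Hochberg adjustment (0.05) followed. The procedure was tested on simulated data. Alternatives used DESeq2 1.42.0, limma 3.58.1 and TMM scaling. Genes named were the 6, cenH3, the highest and lowest expressed of each list by CPM, and the 5 most alike. Other genes were named after their values were seen, because a call or sign changed with a setting or to complete a short list. Members and lists were chosen with earlier results of these data known, and symbol matches to unrelated genes were dropped by hand after their levels were seen.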

Additional observations from a re-analysis of the deposited data

Results flagged for a closer look

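Dixon's test at 95% was applied to 42 groups of 4 library values, and 6 stood out, where chance alone gives about 1 in 20 groups, or 2.1. The groups share genes and libraries and are not independent. The class ratios among H4, H2A and H3 repeat gene pairs, because each of these classes holds 1 gene. Distinct groups are therefore fewer than 42, and the number given by chance among those alone is below 2.1. The flagged ratios of his2b5 over his2a1 and of H2B over H2A share both genes, so the 6 are not separate results either. Of the 6, 5 concern replicate 4. In that library the log2 ratio per kb of his2b5 over his2a1 was -0.31, against 0.17 to 0.27 in the others. For his2b5 over H3C2 it was 1.05, against 1.19 to 1.21. For his2a1 over histone2b1 it was 1.60, against 1.35 to 1.39. The class ratio of H2B over H2A was 0.79, against 1.17 to 1.25.

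All 4 of those ratios hold his2a1 or his2b5, and 3 of them hold his2a1, which stood at its highest in replicate 4. The summed level of the 4 linker histone genes was 834 CPM there, against 590 to 616 CPM. The remaining value was the summed level of the 10 leaf genes in replicate 2, at 6.0 CPM against 3.46 to 3.76, most of it from lhcb7 at 5.13 CPM. That sum is 578-fold below the summed core histones of the same library, and its part in their higher level there was not tested.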

How the results depend on the processing

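All 6 core histone genes stayed above the median gene under the 14 alternatives run (scaling, tool, filter, rounding, threshold, gene span and each library left out), with a largest adjusted p of 3.50e-15. Over all genes, calls above rose from 5212 to 8445 with no filter on low counts and to 9012 with no 2-fold threshold, and calls below from 4925 to 9241 and 8897. With no filter more low genes are tested, so the median gene is a lower one, and cenH3 and all 6 S phase genes not called before were called above. Among single genes, hda102 turned from -0.09 to 0.78 on the log2 scale with no filter. Per gene span, a setting added after the data were seen, hda113 turned to -1.93 and was called below, and Hda1 (-0.65), orc4 (-0.91) and orc1 (-1.13) turned without a call. In reads, 12 of 15 gene pairs and 5 of 6 class pairs kept 1 direction, against 14 and 6 per kb of span. With a library left out these counts could not fall, because a direction kept in all libraries is kept in any subset. No paired analysis was possible because the labels give 1 group. Not run for want of coding lengths, proteins and promoters were coding length plus 500 bases, both class definitions and the motif window. Depth limits none of the 6 genes, whose lowest count was 2282. Limits are the single group, the unknown sharing of reads between histone copies, and 4 libraries, too few for an exact test to pass 0.05.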
